A study of Mus musculus with 8 samples.

Results

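The matrix metalloproteinases (MMPs), the ADAMTS proteases with the related ADAMTS-like proteins (ADAMTSLs), and the tissue inhibitors of metalloproteinases (TIMPs) were examined in mouse dental papilla cells with and without Bmp2. Members were taken by gene symbol from the deposited gene count tables, which gave 51 genes of 22609, namely 23 MMPs, 19 ADAMTSs, 5 ADAMTSLs and 4 TIMPs. The RNA came from immortalized mouse dental papilla cells, either the iBmp2fx/fx cells, which carry floxed Bmp2 alleles, or the iBmp2ko/ko cells, in which Bmp2 is knocked out. Each genotype was 1 cell line, so a difference between genotypes cannot be told apart from a difference between lines. Total RNA of each line was sequenced as 1 library at 6, 24, 48 and 72 h of culture, without further treatment named in the labels. The genotypes were compared over the libraries of 6, 48 and 72 h, with 3 libraries per genotype, since the study's methods name only these times, and the 24 h pair is given apart. The deposited design text gives 8 h where the labels give 6 h, and the labels were followed. Culture times served as the replicates, and p-values measure only the spread between these libraries, since nothing in the labels says that they were separate cultures.

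MMPs are zinc proteases that cut collagens and other matrix proteins, and they are made as inactive precursors that are opened by other proteases. ADAMTS proteases are secreted relatives with thrombospondin repeats, some of which cut the proteoglycans aggrecan and versican and some of which trim procollagens, while the ADAMTSLs have the repeats without the protease domain. TIMPs bind the active site of these enzymes and block them. In the tooth, remodelling of the papilla matrix by such proteases accompanies odontoblast differentiation and dentin formation.

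The count tables held 25890110 to 32415665 reads per library, so 3 counts, the smallest level taken as detectable, corresponded to 0.0925 to 0.116 counts per 1000000 counted reads (CPM), a limit for counting error only. Bmp2 itself had 1 read in the iBmp2fx/fx library of 24 h and 0 in the other 7 libraries, so its counts do not check the genotype labels. Of 14 dental mesenchyme markers, 12 had at least 10 counts in every library. Their levels differed between the lines, and 9 of the 14 did not overlap over 6, 48 and 72 h, where 19.3% of all genes tested did not. Vim, Col3a1 and Pax9 were higher and Twist1, Msx1, Msx2, Lhx6, Dlx1 and Dlx2 lower in the iBmp2ko/ko libraries, for example Col3a1 at 939, 895 and 1002 against 3737, 2624 and 1752 CPM and Dlx2 at 50.1, 41 and 55.4 against 3.74, 3.79 and 17.2 CPM. Of the 6 odontoblast markers, Dspp, Dmp1 and Ibsp stayed under 10 counts throughout. Of the other 3, Nes had 2574 to 5368 counts, Alpl was at 13, 50.6 and 60.3 CPM in the iBmp2fx/fx libraries of 6, 48 and 72 h against 0.647, 0.556 and 1.35 CPM in the iBmp2ko/ko libraries, and Sp7 had 18, 90 and 93 against 2, 3 and 5 counts. These 3 were lower in the iBmp2ko/ko libraries without overlap, as was Dmp1, at 6, 8 and 3 against 0, 0 and 1 counts. Of 3 muscle markers, Des was lower without overlap, at 10.2, 13.2 and 6.84 against 5.28, 3.86 and 2.70 CPM. Myod1 overlapped, at 0.289, 0.154 and 0.543 against 0, 0 and 0.618 CPM, and Myog had at most 3 counts in a library. Of 4 endothelial markers, 2 did not overlap. Tek was higher, at 0.386, 0.617 and 0.415 against 1.16, 2.52 and 0.695 CPM, and Kdr lower, at 2.61, 1.94 and 1.21 against 0.783, 0.915 and 0.579 CPM. The part of such differences in the results on the members was not tested. The library labelled iBmp2ko/ko at 24 h held Alpl at 13.3 CPM. The summed level of 7 epithelial markers was 0.463 to 2.77 CPM in all libraries, with Ambn at 0. Of these, Krt14 was lower in the iBmp2ko/ko libraries of 6, 48 and 72 h without overlap, at 1.06, 1.26 and 0.926 against 0.715, 0.327 and 0.193 CPM. The 8 macrophage and osteoclast markers, of cells rich in Mmp9, summed to 26.6 to 44.7 CPM in the iBmp2fx/fx cells and 25.1 to 45.8 CPM in the iBmp2ko/ko cells, with Emr1 and Calcr at 0.

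The library labelled iBmp2ko/ko at 24 h stood apart from its group. Over the 33 members tested, its median absolute difference on the log2(CPM + 0.5) scale was 0.0939 from the iBmp2fx/fx library of 6 h, against 0.617 from the iBmp2fx/fx library of 24 h and 0.646 from the iBmp2ko/ko library of 48 h. The median chi-square of the member counts between this library and the iBmp2fx/fx library of 6 h was 1.11, where counting error alone gives 0.455, and the other 27 library pairs gave 15.1 to 210. The counts of these libraries were not identical, and they were the closest pair of the 28. No value here checks the label of this library or whether it shares material with the other, since a repeat library of 1 RNA was not analysed here. The genotype results are therefore given without this library first and with it afterwards.

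Levels were compared between genes per length, as CPM divided by exon length in kilobases (RPKM). Timp1 had the highest mean over the 8 libraries with 269 RPKM, followed by Mmp14 with 205, Mmp2 with 183, Timp2 with 180, Timp3 with 54.7 and Mmp11 with 45.7 RPKM. The order differed between libraries. Timp1 was at 604 and 541 RPKM in the iBmp2fx/fx and iBmp2ko/ko libraries of 72 h. At 6 h it was at 112 and 126 RPKM, below Mmp14 with 276 and 272 RPKM. Mmp14 is a membrane-bound collagenase that activates the precursor of Mmp2, a gelatinase, and Timp2 takes part in that step. These 3 MMPs, Mmp2, Mmp14 and Mmp11, made up 85.2 to 94.8% of the summed MMP level in every library. The leading ADAMTSs were Adamts1 with a mean of 15.4 RPKM, Adamts5 with 13.5 and Adamts7 with 10.2, and the leading ADAMTSLs were Adamtsl5 with 14.0 and Adamtsl3 with 10.4 RPKM.

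In the iBmp2fx/fx cells the summed MMP level was 593, 392, 487 and 189 RPKM at the 4 culture times in order. The summed TIMP level of the same libraries was 335, 491, 557 and 840 RPKM. In the iBmp2ko/ko cells the MMP sum was 629, 622 and 246 RPKM and the TIMP sum 354, 385 and 739 RPKM, leaving out 24 h. Both lines thus had more MMP than TIMP transcript per length at 6 h and less at 72 h, with ratios of 1.77 and 0.225 in the iBmp2fx/fx cells and 1.78 and 0.333 in the iBmp2ko/ko cells. At 48 h the lines lay on opposite sides of 1, with a ratio of 0.873 in the iBmp2fx/fx library and 1.62 in the iBmp2ko/ko library, a difference between single libraries that was not tested. Timp1 alone accounted for 33.5% of the TIMP sum at 6 h and 71.9% at 72 h in the iBmp2fx/fx cells, and for 35.6% and 73.2% in the iBmp2ko/ko cells. The library labelled iBmp2ko/ko at 24 h had a ratio of 1.72, near both 6 h libraries and above the 0.798 of the iBmp2fx/fx library of 24 h. The ADAMTS sum was 53.8, 70.2, 66.7 and 55.6 RPKM in the iBmp2fx/fx libraries in order of time and 77.2, 133 and 69.4 RPKM in the iBmp2ko/ko libraries of 6, 48 and 72 h, so the iBmp2ko/ko library was higher at each of these times. The ADAMTSL sum lay between 18 and 35.9 RPKM in all 8 libraries, and its lowest value in each line was at 72 h.

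**Figure D1:**
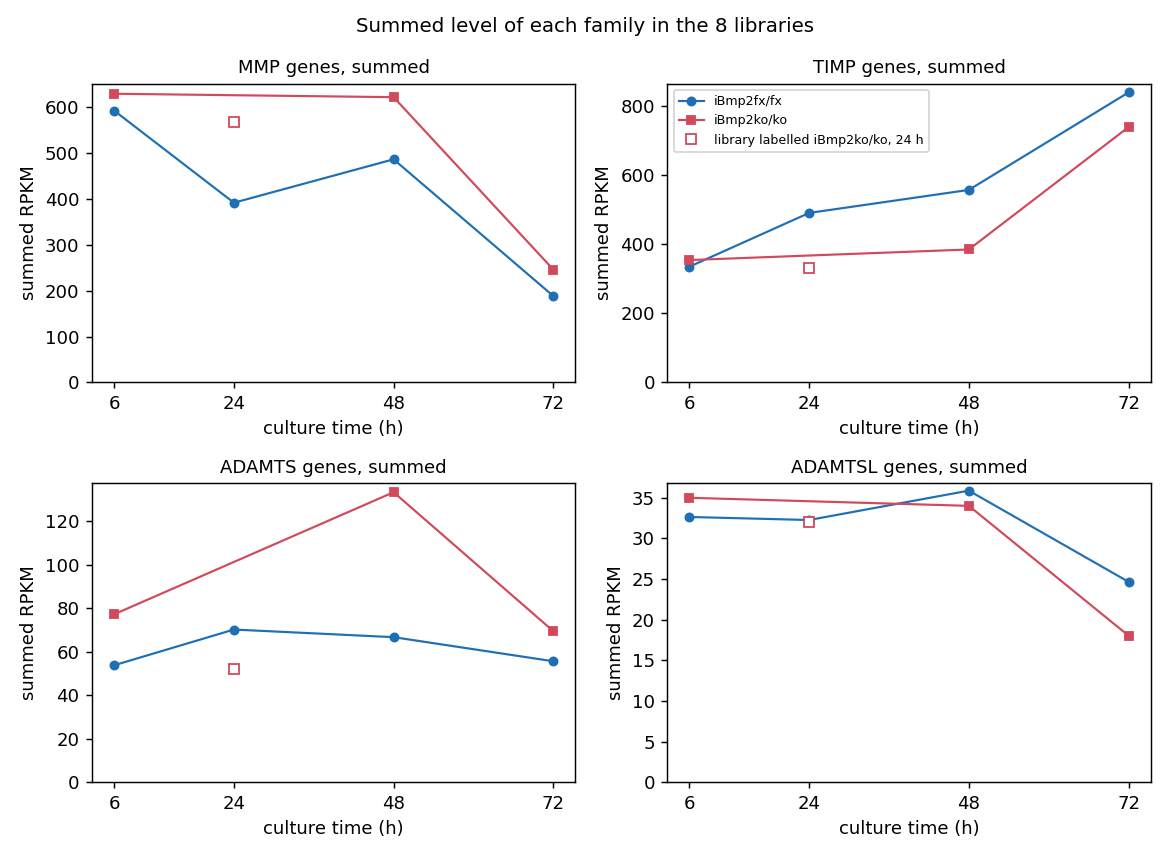
Summed RPKM of the MMPs, TIMPs, ADAMTSs and ADAMTSLs in each library against culture time in hours, with circles for the iBmp2fx/fx libraries, filled squares for the iBmp2ko/ko libraries and an open square for the library labelled iBmp2ko/ko at 24 h. The MMP sum is lowest at 72 h (189 and 246 RPKM) and the TIMP sum highest (840 and 739 RPKM) in both lines.

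On chromosome 9, 10 MMP genes lie next to each other, from Mmp13, whose start is at 7272514, to Mmp7, whose end is at 7699585 (mm9). They include the interstitial collagenases, the stromelysins Mmp3 and Mmp10, the neutrophil collagenase Mmp8 and the enamel protease Mmp20. The promoters of this cluster are known for a TATA box and a site for AP-1, the Fos and Jun factor, and the 100 bases before the start site are shown for the 5 cluster members with any reads. The sequences are RefSeq promoter windows of GRCm38.p6, placed on mm9 by exact match and written 5′ to 3′ on the plus strand, with the AP-1 letters TGANTCA and the TATA box letters TATAAA in capitals.
Mmp13, chr9:7272414-7272513: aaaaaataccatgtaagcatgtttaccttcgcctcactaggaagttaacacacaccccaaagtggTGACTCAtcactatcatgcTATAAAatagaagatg
Mmp3, chr9:7445722-7445821: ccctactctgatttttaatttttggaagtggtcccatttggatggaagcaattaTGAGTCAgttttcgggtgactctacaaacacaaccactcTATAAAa
Mmp10, chr9:7502242-7502341: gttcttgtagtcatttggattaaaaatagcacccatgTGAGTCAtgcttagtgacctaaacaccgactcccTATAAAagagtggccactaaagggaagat
Mmp8, chr9:7558329-7558428: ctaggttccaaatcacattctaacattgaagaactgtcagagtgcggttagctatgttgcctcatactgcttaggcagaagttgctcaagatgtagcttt
Mmp27, chr9:7571296-7571395: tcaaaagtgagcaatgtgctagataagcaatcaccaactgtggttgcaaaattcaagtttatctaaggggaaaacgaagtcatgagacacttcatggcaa
In the 250 bases before the start, searched on both strands, TGANTCA was present in 6.75% of the 32851 promoters in the table and in the promoters of 8 of the 36 members listed there, all of them in the cluster, and TATAAA was present in 12.4% of all promoters and in 10 of the 36 members. Mmp3, Mmp10 and Mmp13 had both, with the AP-1 letters 46 to 40, 63 to 57 and 35 to 29 bases before the start, whereas Mmp8 and Mmp27 had no match to either. The letters TGTGGT, the core of RUNX sites, were in the promoters of 6 of the 36 members, Mmp13, Mmp14, Mmp1b, Mmp23, Mmp27 and Mmp7, and in 14.0% of all promoters. The letters GGCGCC, a GC element named for BMP-responsive genes, were in those of Adamts14, Adamts2, Adamts9, Adamtsl5, Mmp11 and Mmp23 and in 9.59% of all promoters. These matches are a description of the letters and not of bound sites.

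Reads on the cluster were few in both lines, and Mmp3 was its only member with enough counts for the genotype test. Mmp3 had 2, 5 and 4 counts in the iBmp2fx/fx libraries of 6, 48 and 72 h and 38, 74 and 23 counts in the iBmp2ko/ko libraries, so the groups did not overlap. Its counts summed over the 3 libraries, per summed library size, were 13.6 times as high in the iBmp2ko/ko cells (95% interval of 7.34 to 27.8, counting error only). Mmp27 (1, 1 and 0 against 10, 15 and 1 counts), Mmp13 (2, 7 and 1 against 3, 13 and 2), Mmp8 (0, 0 and 2 against 1, 12 and 1) and Mmp10 (2, 0 and 0 against 4, 1 and 0) were too low for the genotype test. Their highest counts were at 48 h in the iBmp2ko/ko library for Mmp27, Mmp13 and Mmp8, and at 6 h for Mmp10. Mmp12, Mmp1a, Mmp1b, Mmp20 and Mmp7 had 0 counts in all 8 libraries, and reads that align to several positions, 41.3 to 49.6% of alignments, were not counted. In the library labelled iBmp2ko/ko at 24 h, Mmp3 had 2 counts, as in the iBmp2fx/fx library of 24 h, and Mmp27 had 0.

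**Figure D2:**
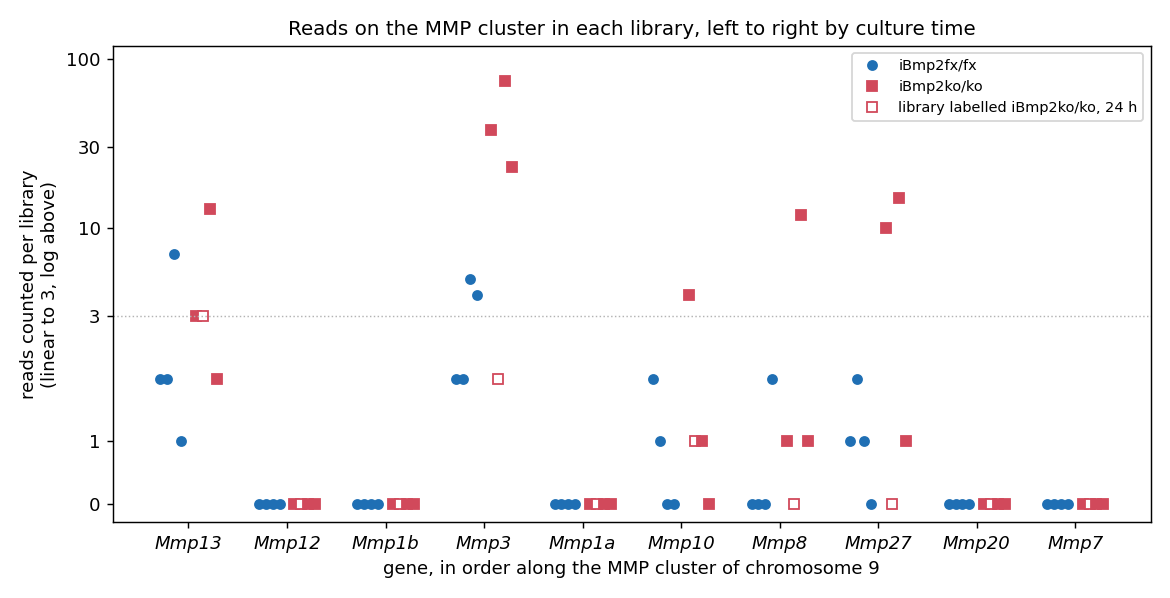
Reads counted on each gene of the chromosome 9 MMP cluster, in genome order from Mmp13 to Mmp7, with 1 point per library, ordered by culture time within each genotype, on an axis that is linear up to 3 counts (dotted line) and logarithmic above. Mmp3 reaches 38, 74 and 23 counts in the iBmp2ko/ko libraries of 6, 48 and 72 h and at most 5 in the iBmp2fx/fx libraries.

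To ask which members differed with the genotype, edgeR's quasi-likelihood test was run over all 13121 genes with enough counts. Of the members, 33 could be tested and 18 could not, of which 5 had no counts and 13 were low, with at most 40 counts in total. In these tests 4 members passed an adjusted p of 0.05 with a log2 fold change of at least 1 in size, where 2.19% of all genes did, and Mmp3 was higher (0.899% of all genes) while Adamts3, Adamtsl1 and Mmp24 were lower in the iBmp2ko/ko cells (1.29%). Of these, Mmp3, Adamts3 and Mmp24 passed the filter on low counts through the genotype in which they are high, so they had to differ, and their number supports nothing. Where at least 10 counts in every library were required, 1 of 28 members was called, Adamtsl1, against 1.18% of all genes. At the limit written in the study's methods, an unadjusted p under 0.05 with a log2 fold change above 1 in size, 12 members passed, 4 of them higher and 8 lower, against 7.35% of all genes. The 12 include Mmp3, Mmp24, Adamts3 and Adamts16, which passed the filter through 1 genotype and had to differ, so this count supports nothing about the members. With the iBmp2fx/fx library of 24 h added, which leaves out only the library labelled iBmp2ko/ko at 24 h, 5 members were called, with Mmp3, Adamts14 and Adamts16 higher and Adamts3 and Adamtsl1 lower. Mmp3, Adamts3 and Adamts16 are among the members that passed the filter through 1 genotype. Leaving out 1 library at a time, edgeR called 1 member without the iBmp2fx/fx library of 6 h, 0 without that of 48 or 72 h, 0 without the iBmp2ko/ko library of 6 or 48 h, and 3 without the iBmp2ko/ko library of 72 h at the adjusted limit. For the fits with 1 library added or left out, the share of all genes called is not given here. Their counts are therefore not read as results about the members.

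Since libraries with 1 culture time varied alike in both lines, the comparison was also made with culture time as a block. With the block, 14 members were called at the adjusted limit, against 8.45% of all genes. The 14 include Mmp3, Mmp24, Adamts3 and Adamts16, which passed the filter on low counts through 1 genotype and had to differ, so this count supports nothing about the members. Of the 14, 4 were higher in the iBmp2ko/ko cells (Mmp3, Adamts5, Adamts14 and Adamts16), against 3.78% of all genes, and 10 were lower (Adamts3, Adamts9, Adamts12, Adamtsl1, Adamtsl2, Adamtsl3, Mmp9, Mmp15, Mmp24 and Mmp28), against 4.67%. Without the fold limit, 17 members passed the adjusted p, against 22.7% of all genes. The 14 had the same sign at 6, 48 and 72 h. The groups did not overlap for 10 of the 33 members tested, or for 6 of 29 without the 4 that passed the filter through 1 genotype, where 19.3% of all genes did not. By family, the block called 5 of 13 tested MMPs, 6 of 12 ADAMTSs, 3 of 5 ADAMTSLs and 0 of 3 TIMPs, of which 3 MMPs, 4 ADAMTSs and 3 ADAMTSLs had not passed the filter through 1 genotype alone. The median blocked log2 fold change of the 33 members was -0.04 and its median size 0.69, against 0.02 and 0.26 over all genes. The 33 include the 4 that had to differ, which raise this median size. The median without them was not taken, so this contrast is not read as a result about the members.

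**Figure D3:**
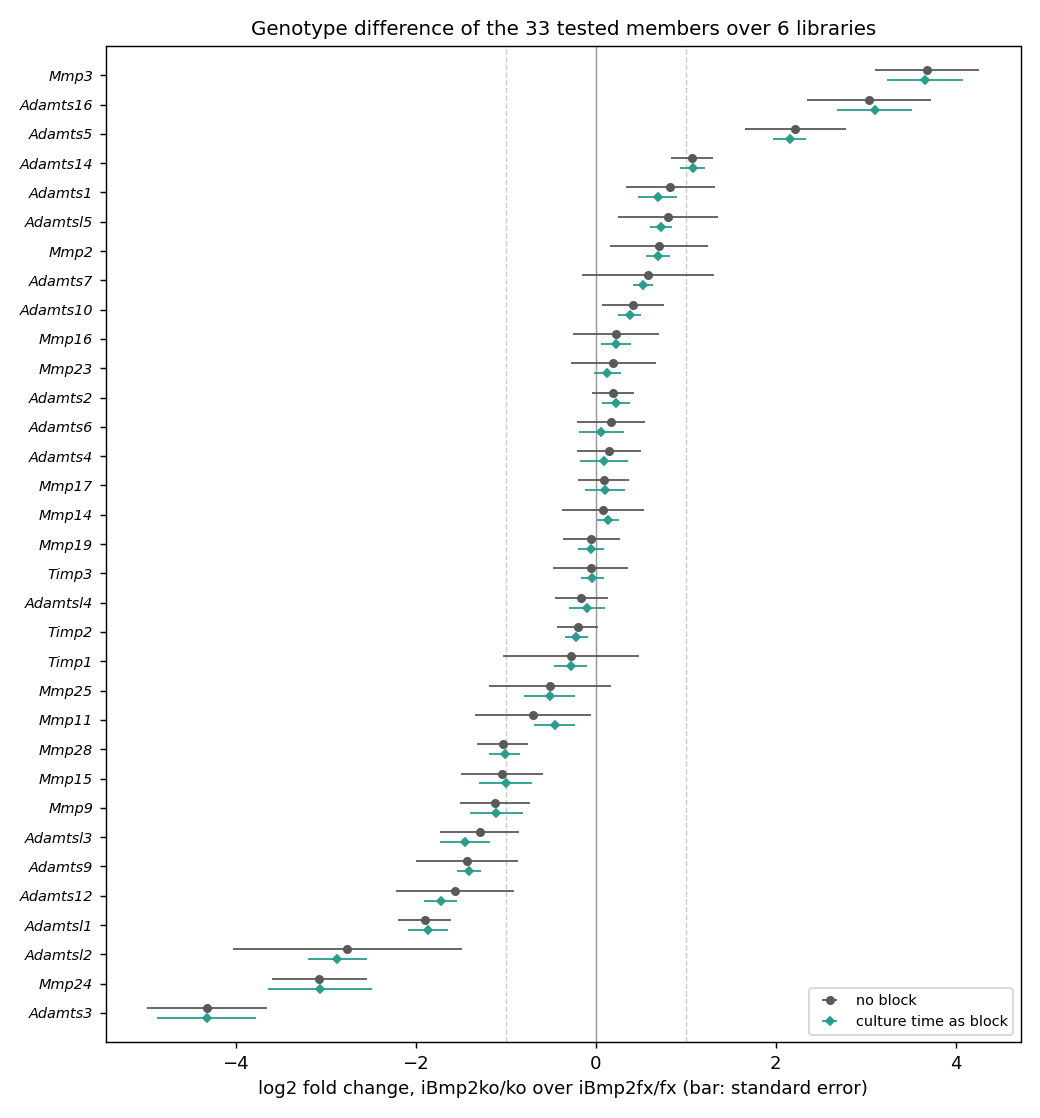
Log2 fold change of each of the 33 tested members, iBmp2ko/ko against iBmp2fx/fx over 6, 48 and 72 h, from edgeR without the block (circles) and with culture time as a block (diamonds), with bars for the standard error and dashed lines at the fold limit of 1 in size. With the block the members lie between -4.32 (Adamts3) and 3.66 (Mmp3), and the 3 tested TIMPs between -0.28 and -0.04.

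Among the MMPs, Mmp3 (chr9:7445822-7455972, plus strand), a stromelysin that cuts proteoglycans and activates other MMPs, was higher in the iBmp2ko/ko cells, through which alone it passed the filter on low counts. Its level was 0.115 ± 0.0462 CPM (SD, n = 3) in the iBmp2fx/fx cells and 1.53 ± 0.793 CPM in the iBmp2ko/ko cells, with a log2 fold change of 3.68 (SE 0.58, edgeR adjusted p = 0.0252) without the block and 3.66 (SE 0.42, adjusted p = 0.00136) with it. Mmp24 (chr2:155601078-155644102, plus strand), a membrane-type MMP, had 12, 13 and 15 counts in the iBmp2fx/fx libraries, through which alone it passed the filter, and 2, 1 and 1 in the iBmp2ko/ko libraries, with no overlap. The ratio of its summed counts, per summed library size, was 0.110 (95% interval of 0.029 to 0.305, counting error only), and its log2 fold change was -3.07 (SE 0.53, edgeR adjusted p = 0.0334) and -3.06 (SE 0.58, adjusted p = 0.0101) with the block. In the iBmp2fx/fx library of 24 h Mmp24 had 3 counts, and adding that library took the adjusted p to 0.0694. An antisense gene, BC029722, shares 13.6% of the exonic bases of Mmp24, and the strand setting of the counting is not given in the sources used here.

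Mmp28, Mmp9 and Mmp15 fell in the fit with the block and were not called without it. Mmp28, called epilysin, was at 18, 26.9 and 14.8 CPM in the iBmp2fx/fx libraries and at 11.2, 10.3 and 7.49 CPM in the iBmp2ko/ko libraries, with no overlap and a blocked log2 fold change of -1.01 (SE 0.17, edgeR adjusted p = 0.00663, against 0.153 without the block). The gelatinase Mmp9 had 34, 35 and 52 counts against 18, 14 and 18, also without overlap, with a blocked log2 fold change of -1.10 (SE 0.30, edgeR adjusted p = 0.0338, against 0.257). Of the 8 macrophage and osteoclast markers, Csf1r (1.03, 1.85 and 1.02 against 0.238, 0.588 and 0.425 CPM) and Cd68 (5.31, 12.2 and 3.07 against 2.65, 2.81 and 2.12 CPM) were also lower in the iBmp2ko/ko libraries without overlap. Cd14, which makes up most of the summed level given above, overlapped, Ptprc and Itgam had at most 3 counts in a library, and the part of such cells in the Mmp9 counts was not tested. The membrane-type Mmp15 was at 2.51, 6.39 and 3.80 CPM against 1.43, 1.90 and 2.82 CPM, so the groups overlapped, with a blocked log2 fold change of -1.0 (SE 0.29, edgeR adjusted p = 0.0465, against 0.373). Mmp28 shares 12% of its exonic bases with 1700020L24Rik on the other strand.

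The 3 most abundant MMPs were not called in either fit. Mmp14 (chr14:55050441-55060095, plus strand) was at 717, 586 and 229 CPM in the iBmp2fx/fx libraries of 6, 48 and 72 h and at 706, 607 and 296 CPM in the iBmp2ko/ko libraries, so the values interleaved (blocked log2 fold change of 0.14, SE 0.12, edgeR adjusted p = 0.447). Mmp2 (chr8:95351227-95377316, plus strand) was at 621, 486 and 183 CPM against 848, 959 and 287 CPM, higher in the iBmp2ko/ko library at each time. Its blocked log2 fold change of 0.70 (SE 0.13, edgeR adjusted p = 0.0104) passed the p limit but not the fold limit, and without the block the adjusted p was 0.65. Mmp11, which acts on few matrix proteins, was at 215, 158 and 32.2 CPM against 119, 87.6 and 41.9 CPM, lower at 6 and 48 h and higher at 72 h (blocked log2 fold change of -0.46, SE 0.23, edgeR adjusted p = 0.195).

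The ADAMTS proteases included changes in both directions. Adamts3 (chr5:90102866-90312359, minus strand), a procollagen N-proteinase that also processes a lymphatic growth factor, had 33, 47 and 36 counts in the iBmp2fx/fx libraries, through which alone it passed the filter, and 2, 3 and 0 in the iBmp2ko/ko libraries. Its level was 1.22 ± 0.204 CPM (SD, n = 3) against 0.0554 ± 0.0503 CPM, and none of the 3 iBmp2ko/ko libraries was above the detectable level of 3 counts. The log2 fold change was -4.31 (SE 0.67, edgeR adjusted p = 0.0243) and -4.32 (SE 0.55, adjusted p = 0.00216) with the block, and -4.95 in the unblocked fit without the iBmp2ko/ko library of 48 h. With all 8 libraries it was -2.39 without the block (adjusted p = 0.483) and -2.92 with it (adjusted p = 0.116). Adamts14 (chr10:60659860-60736186, minus strand), another procollagen N-proteinase, moved the other way, from 15.2, 10.3 and 11.1 CPM to 30.6, 24.9 and 21.5 CPM with no overlap. Its blocked log2 fold change was 1.08 (SE 0.14, edgeR adjusted p = 0.0022, against 0.0754 without the block).

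Adamts5 and Adamts1 are neighbouring aggrecan- and versican-cutting proteases on chromosome 16 (chr16:85858415-85901370 and chr16:85794072-85803358, both on the minus strand). Adamts5 was at 21.1, 57.2 and 52.9 CPM in the iBmp2fx/fx libraries of 6, 48 and 72 h and at 97.4, 349 and 166 CPM in the iBmp2ko/ko libraries. All 3 iBmp2ko/ko values lay above all 3 iBmp2fx/fx values, while the iBmp2fx/fx library of 24 h, at 109 CPM, lay above the iBmp2ko/ko library of 6 h. Adamts5 had the smallest blocked adjusted p of the members, with a log2 fold change of 2.16 (SE 0.18, edgeR adjusted p = 0.000478), and without the block 2.22 (SE 0.56, adjusted p = 0.123), or 1.60 when the iBmp2ko/ko library of 48 h was left out. With all 8 libraries it was 1.40 without the block and 1.31 with it. Adamts1 was at 39.8, 70.0 and 78.8 CPM against 48.9, 187 and 99.8 CPM, and was not called (blocked log2 fold change of 0.69, SE 0.22, edgeR adjusted p = 0.0567). Per length, the ratio of Adamts5 to Adamts1 was 0.347, 0.536 and 0.440 in the iBmp2fx/fx libraries and 1.30, 1.23 and 1.09 in the iBmp2ko/ko libraries, so Adamts5 exceeded Adamts1 in the iBmp2ko/ko libraries of these times.

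Adamts16 (chr13:70866680-70980689, minus strand) was low in both lines, with 9, 4 and 1 counts against 55, 33 and 20, without overlap. The ratio of its summed counts, per summed library size, was 8.52 (95% interval of 4.86 to 16.1, counting error only), and its blocked log2 fold change was 3.10 (SE 0.42, edgeR adjusted p = 0.00261, against 0.0889). Its unblocked value of 3.04 became 3.88 without the iBmp2fx/fx library of 6 h. It passed the low-count filter through the iBmp2ko/ko libraries. Adamts9, a versican-cutting protease, was at 19.4, 69.1 and 38.1 CPM against 8.37, 26.1 and 12.5 CPM, and Adamts12 at 15.7, 34.6 and 47.7 CPM against 3.81, 8.99 and 20.2 CPM. Both groups overlapped across times, while the iBmp2ko/ko library was the lower one at each time. The blocked log2 fold changes were -1.41 (SE 0.14, edgeR adjusted p = 0.000734, against 0.317) for Adamts9 and -1.72 (SE 0.18, adjusted p = 0.00105, against 0.346) for Adamts12, whose unblocked value of -1.57 became -2.39 without the iBmp2ko/ko library of 72 h. On the other strand, A730049H05Rik shares 11% of the exonic bases of Adamts9. Adamts7, a protease of cartilage and vessel matrix, was at 76.4, 70.1 and 15.3 CPM against 115, 106 and 19.8 CPM, with a blocked log2 fold change of 0.53 (SE 0.11, edgeR adjusted p = 0.0135) that stayed under the fold limit.

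Of the ADAMTS-like proteins, Adamtsl1 (chr4:85699819-86074289, plus strand), called punctin, fell in both fits. It was at 13.8, 23.4 and 22.1 CPM in the iBmp2fx/fx libraries and at 5.62, 6.05 and 4.29 CPM in the iBmp2ko/ko libraries, with no overlap. The log2 fold change was -1.90 (SE 0.29, edgeR adjusted p = 0.0243) and -1.86 (SE 0.22, adjusted p = 0.00158) with the block, and with all 8 libraries -1.30 (adjusted p = 0.483) and -1.44 (adjusted p = 0.105). Adamtsl3 was at 92.1, 125 and 90.2 CPM against 16.7, 57.9 and 49.9 CPM, also with no overlap, and was called with the block (log2 fold change of -1.45, SE 0.28, edgeR adjusted p = 0.0109, against 0.25). Adamtsl2, which binds fibrillin microfibrils and the latent TGF-beta binding protein, was at 6.59, 2.16 and 0.224 CPM in the iBmp2fx/fx libraries of 6, 48 and 72 h and at 1.06, 0.196 and 0.0386 CPM in the iBmp2ko/ko libraries. Its groups overlapped, and its blocked log2 fold change was -2.87 (SE 0.33, edgeR adjusted p = 0.0014, against 0.403). Without the block its log2 fold change of -2.76 became -1.49 without the iBmp2fx/fx library of 6 h, -4.53 without the iBmp2ko/ko library of 6 h and -0.38 with all 8 libraries. Adamtsl5 passed the blocked p limit under the fold limit with 0.73 (SE 0.13, edgeR adjusted p = 0.00736), and Adamtsl4, at 20.6 ± 6.79 against 18.5 ± 0.569 CPM (SD, n = 3), was not called.

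**Figure D4:**
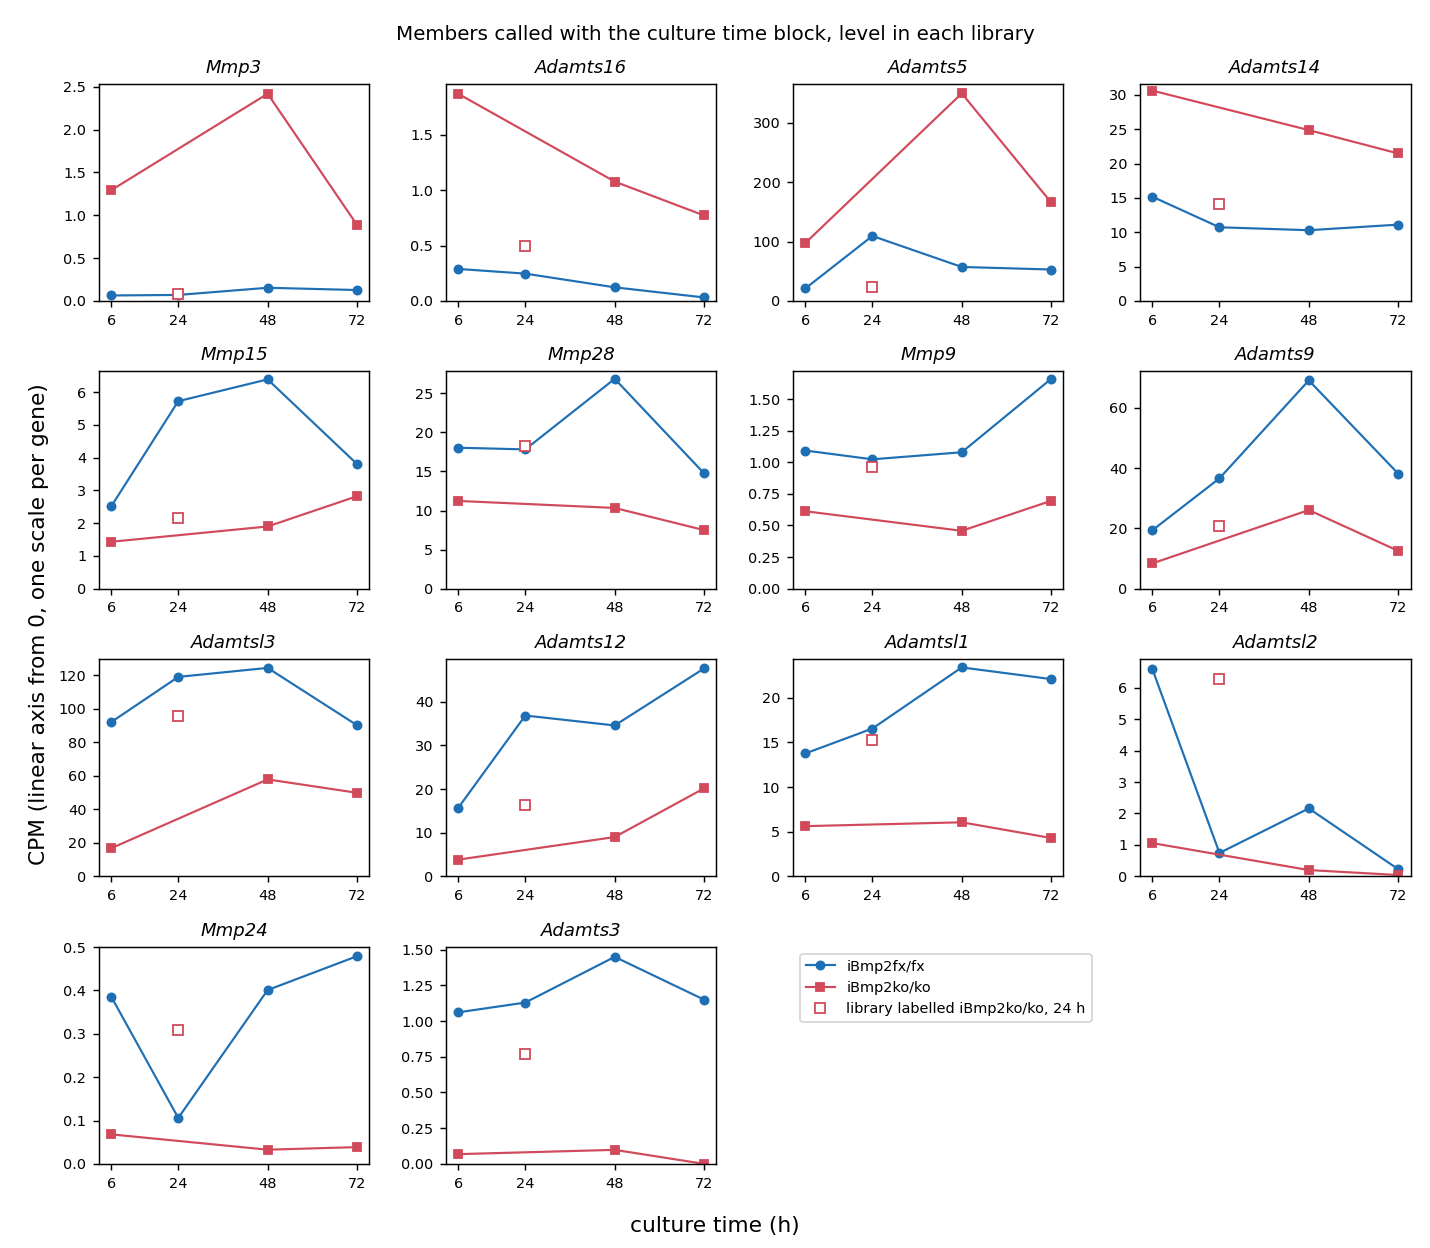
CPM of each of the 14 members called with the culture time block, on linear axes from 0 with a scale for each gene, against culture time in hours, with circles for the iBmp2fx/fx libraries, filled squares for the iBmp2ko/ko libraries and an open square for the library labelled iBmp2ko/ko at 24 h. The filled square lies on the same side of the circle at 6, 48 and 72 h in all 14 panels.

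No TIMP was called. Timp1 (chrX:20447292-20451861, plus strand) was at 99.7, 246 and 536 CPM in the iBmp2fx/fx libraries and at 112, 136 and 481 CPM in the iBmp2ko/ko libraries (blocked log2 fold change of -0.28, SE 0.19, edgeR adjusted p = 0.313). Timp2 was at 751, 841 and 650 CPM against 759, 704 and 486 CPM (-0.22, SE 0.13, edgeR adjusted p = 0.252), and Timp3, the TIMP that stays bound to the matrix and blocks ADAMTS proteases as well, at 246, 523 and 562 CPM against 271, 413 and 594 CPM (-0.04, SE 0.13, edgeR adjusted p = 0.853). In all 3 the groups overlapped, and differences of these sizes lay within 2 standard errors of 0. Timp4 had 0, 5 and 0 counts against 2, 0 and 0, too few for a test. Timp3 lies within Syn3, which runs on the other strand and shares 21.3% of the exonic bases of Timp3.

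The 24 h pair, 1 library per genotype, is given by its labels, and since the library labelled iBmp2ko/ko lies so near the iBmp2fx/fx library of 6 h, no genotype difference at 24 h is read from it. The iBmp2fx/fx library of 24 h and the library labelled iBmp2ko/ko at 24 h had 109 and 24.1 CPM of Adamts5, 0.741 and 6.28 CPM of Adamtsl2, 3 and 8 counts of Mmp24, and 17.8 and 18.3 CPM of Mmp28. For these 4 of the 14 called members the sign at 24 h was opposite to that at the other times, against 12 of all 33 tested members and 46.2% of all genes. Mmp15, at 5.72 and 2.16 CPM, had the same sign as at the other times. For 11 of the 14 the library labelled iBmp2ko/ko at 24 h lay nearer to the mean of the iBmp2fx/fx libraries, against 19 of all 33 tested members, as with Adamts3, at 32 and 20 counts, and Adamtsl1, at 16.6 and 15.3 CPM. With all 8 libraries, edgeR called 0 of 31 members tested, as it called 0% of all genes, and 6 members passed the unadjusted limit against 3.55%. With all 8 libraries and the block, 2 members were called, Adamts9 and Adamts12, both lower in the iBmp2ko/ko cells, against 0.253% of all genes, and 7 passed the unadjusted limit against 5.08%.

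**Figure D5:**
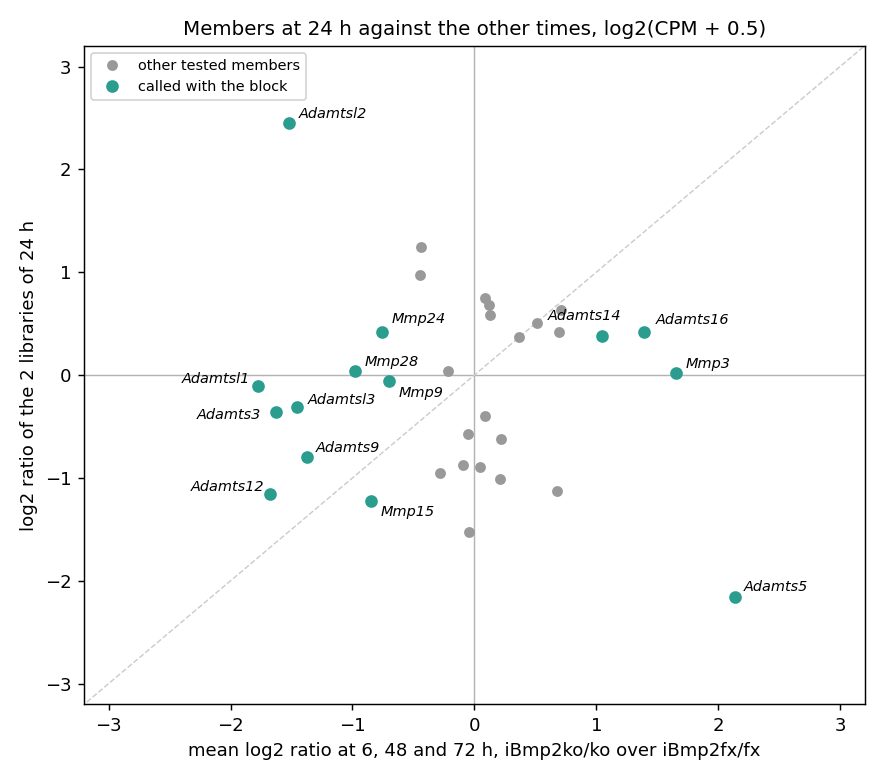
Log2 ratio of the iBmp2ko/ko to the iBmp2fx/fx library at 24 h (vertical axis) against the mean log2 ratio at 6, 48 and 72 h (horizontal axis), both on the log2(CPM + 0.5) scale, for the 33 tested members, with named points for the 14 called with the block and a dashed line where both are equal. Of the called members, Adamts5, Adamtsl2, Mmp24 and Mmp28 have opposite signs on the 2 axes.

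Change with culture time was tested as a slope on the log2 of time shared by both lines, over 7 libraries without the one labelled iBmp2ko/ko at 24 h, with the first time taken as 6 h. No member passed an adjusted p of 0.05 in edgeR (0% of all genes), the smallest being 0.114, while 15 of 34 members had an unadjusted p under 0.05, against 25.8% of all genes. Of these, 8 had a positive slope, against 13.1% of all genes, and 7 a negative one, against 12.7%. DESeq2 called 7 members, against 12.6% of all genes, with Adamts1, Adamts9, Adamts12, Mmp16, Timp1 and Timp3 rising and Adamtsl2 falling. The slope of Timp1 in edgeR was 0.56 per doubling of time (SE 0.13, adjusted p = 0.116), that of Adamts12 0.53 (SE 0.09, adjusted p = 0.114), that of Mmp16, a membrane-type MMP, 0.36 (SE 0.08, adjusted p = 0.114), and that of Timp3 0.31 (SE 0.09, adjusted p = 0.132). Adamtsl2 had a slope of -0.90 (SE 0.23, edgeR adjusted p = 0.12). Mmp14 and Mmp11, which had their lowest iBmp2fx/fx and iBmp2ko/ko values at 72 h, had slopes of -0.26 (SE 0.11, edgeR adjusted p = 0.186) and -0.37 (SE 0.15, adjusted p = 0.184). Without the iBmp2ko/ko library of 48 h, edgeR called 5 members, against 8.01% of all genes, of which Adamts1, Adamts12, Mmp16 and Timp1 had positive slopes and Adamtsl5 a negative one.

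Whether the slopes differed between the lines was tested as an interaction. No member was called by edgeR, DESeq2 or limma, and 1 had an unadjusted p under 0.05 in edgeR, against 1.03% of all genes. That member was Adamtsl3, whose slope was 0.45 per doubling (SE 0.14, unadjusted p = 0.0155, edgeR adjusted p = 1) above that of the iBmp2fx/fx cells.

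A list of 57 other genes of matrix proteolysis, with ADAM proteases, procollagen processing enzymes, the plasminogen activator system, cathepsins and proteoglycan substrates, was tested in the same way, and 44 had enough counts. Without the block 1 was called (2.19% of all genes were), Pcolce2, an enhancer of procollagen C-proteinase, which was at 122, 149 and 140 CPM in the iBmp2fx/fx libraries and at 21.3, 13 and 33.4 CPM in the iBmp2ko/ko libraries. Its log2 fold change was -2.60 (SE 0.36, edgeR adjusted p = 0.0178), and at 24 h it was at 101 CPM and, in the library labelled iBmp2ko/ko, at 115 CPM. The unadjusted limit was passed by 4 genes of the list, 1 higher and 3 lower, against 7.35% of all genes. With the block 9 were called, against 8.45% of all genes, of which Adam23 and Adam33 were higher and 7 were lower in the iBmp2ko/ko cells, among them Pcolce2, Adam8, Adam12, Plaur, Hpse and Vcan. Vcan encodes versican, a substrate of Adamts1, Adamts5 and Adamts9, and its blocked log2 fold change was -1.06 (edgeR adjusted p = 0.00392). The list's median log2 fold change was -0.16, against 0.03 over all genes.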

How the data were processed

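Total RNA of 8 libraries was measured by RNA sequencing. Per the submitters' processing notes, the authors used CASAVA 1.8.2, TopHat2 2.0.8b with the mouse build mm9, and HTSeq, and they deposited raw read counts per gene symbol. The annotation and strand setting of the counting are not given in the sources used here. The lncRNA tables were not used here.

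Counts were tested in R 4.3.3 with edgeR 4.0.16 (TMM factors, removal of genes without at least 10 counts in enough libraries or 15 in total, quasi-likelihood test, Benjamini-Hochberg adjustment over all genes tested). CPM used the reads counted on genes, and RPKM the exon length in GENCODE M1 (mm9), to which all 51 members were matched by symbol. Standard deviations are over 3 libraries. Standard errors given with edgeR are the size of the log2 fold change or slope divided by the square root of its quasi-likelihood F statistic. They therefore restate the test and add no separate measure of spread. Culture times in the labels pair the libraries, and the deviations of same-time libraries from their genotype mean correlated at 0.713 (6 h), 0.536 (48 h) and 0.840 (72 h), against -0.695 to 0.168 between different times. Alternatives were all 8 libraries, 7 libraries, the culture time block or covariate, DESeq2 1.42.0, limma 3.58.1, RLE factors, other filters, time in hours, and leaving out each library. The edgeR tests of genotype, with and without the block, and of culture time were run on simulated data with known changes. The changed genes there were not low in counts, and the interaction test, DESeq2 and limma were not run on simulated data.

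Named members are those called in any of the fits, the TIMPs, the 3 most abundant of each other family, the chromosome 9 cluster and those with 0 counts. Members, lists and tests were chosen with earlier results of these data known. Promoter letters were searched in 250 bases before the start of 36 members in the RefSeq table. Figures were drawn with Python 3.11.15 and matplotlib 3.10.9. A gene of the list of other matrix protease genes is not reported here.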

Additional observations from a re-analysis of the deposited data

Results flagged for a closer look

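In 4 of the 48 groups of 4 libraries examined, counting each named member with enough reads once per genotype, 1 library lay far from the other 3. Each is given by the gap to its nearest neighbour as a share of the group's whole range on the log2(CPM + 0.5) scale. Chance marks about 1 in 20 groups of 4 like replicates. The 4 libraries of a group here are different culture times, and the iBmp2ko/ko groups hold the 24 h library that stood apart, so this rate need not hold. Adamtsl4 in the iBmp2fx/fx library of 6 h, at 12.8 CPM, had a share of 0.901. Mmp9 in the iBmp2fx/fx library of 72 h, at 1.66 CPM, had a share of 0.872. Mmp24 in the library labelled iBmp2ko/ko at 24 h, at 0.308 CPM from 8 counts, had a share of 0.846. Timp2 in the iBmp2ko/ko library of 72 h, at 486 CPM, had a share of 0.832.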

How the results depend on the processing

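The number of members called for genotype, 4 (1 higher, 3 lower), was 0 with all 8 libraries, 5 (3 higher, 2 lower) with the 7 libraries other than the one labelled iBmp2ko/ko at 24 h, 8 (3 higher, 5 lower) with log2 culture time as a covariate over these 7, 8 (4 higher, 4 lower) with DESeq2, and 1 where every library had to hold at least 10 counts. With culture time as the replicate block it was 14 over 6 libraries and 2 over 8 libraries. Leaving out each library in turn gave 0 to 3, with 0 without the iBmp2fx/fx library of 48 or 72 h or the iBmp2ko/ko library of 6 or 48 h, and 1 without the iBmp2fx/fx library of 6 h. The 12 members past the unadjusted limit became 6 with all 8 libraries and 7 with the block over 8 libraries, and numbered 8 to 14 without 1 library. Of the other matrix protease genes, 1 was called, against 0 with all 8 libraries, 9 with the block over 6 libraries, 0 with the block over 8 libraries, 3 with the covariate, 3 with DESeq2, and 0 to 3 without 1 library. The share of all genes called for genotype at the adjusted limit changed as well. It was 2.19% over 6 libraries without the block, 0% with all 8 libraries and 1.18% with at least 10 counts in every library. With the block it was 8.45% over 6 libraries and 0.253% over 8 libraries. The shares for the other fits are not given here, so their counts are not read as results about the members. Members called for culture time, 0 in edgeR, numbered 7 with DESeq2 and 0 to 5 without 1 library, the 5 without the iBmp2ko/ko library of 48 h. The interaction called 0 members in every alternative run. The cause of these changes was not tested, apart from the fewer libraries or genes that some alternatives hold. None of the 14 members called with the block changed sign in a genotype alternative that could test it, while the uncalled Adamtsl4, Mmp14, Timp1 and Timp3 did in 1 to 3 alternatives. Leaving out 1 library, the adjusted p was 0.0203 to 0.133 for Adamts3, 0.0378 to 0.138 for Adamtsl1, 0.0191 to 0.133 for Mmp3 and 0.0737 to 0.173 for Mmp24. Adamts3, Adamts16, Mmp3 and Mmp24 had under 20 counts over 3 libraries in 1 genotype, so their fold sizes depend on few reads. Over the alternatives that could test them, the log2 fold change was -4.95 to -1.19 for Adamts3 and 1.18 to 3.88 for Adamts16. It was 1.66 to 3.92 for Mmp3 and -3.40 to -0.754 for Mmp24.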
